A study of Saccharomyces cerevisiae with 16 samples.

Results

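The lower end of glycolysis and ethanol formation in baker's yeast was followed through 10 genes, taken as every probe set whose single annotated gene was one of them. These were the enolases ENO1 (YGR254W) and ENO2 (YHR174W), the pyruvate kinases CDC19 (YAL038W) and PYK2 (YOR347C), the pyruvate decarboxylases PDC1 (YLR044C), PDC5 (YLR134W) and PDC6 (YGR087C), and the alcohol dehydrogenases ADH1 (YOL086C), ADH2 (YMR303C) and ADH3 (YMR083W). Each gene had 1 such probe set, so 10 of the 5410 genes tested, on arrays of 9335 probe sets, are described. All 10 passed the filter on dim signals, and none lay at the signal floor on any array.

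Enolase turns phosphoglycerate into phosphoenolpyruvate, and pyruvate kinase then makes pyruvate and ATP. Pyruvate decarboxylase splits pyruvate into carbon dioxide and acetaldehyde, which alcohol dehydrogenase reduces to ethanol while oxidising NADH. Each step is encoded by several isoenzyme genes, some best known from cells fermenting glucose and others from cells using ethanol or other non-fermentable carbon.

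RNA came from Saccharomyces cerevisiae CEN PK 113-7D, a haploid laboratory strain of mating type a, in an aerobic carbon-limited chemostat at a dilution rate of 0.05 per h, pH 5 and 30 °C, with 27.1 g/l glucose and 1.42 g/l ethanol in the feed. There were 3 arrays each for the steady state before the pulse, for 120 s and for 300 s, 2 each for 30, 60 and 330 s, and 1 for 210 s. Times are counted from a single injection of glucose that brought its concentration to 1 g/l (5.56 mM). All cultures shared strain, medium and pulse, and no mock pulse was analysed here. Per the labels every time point but 210 s had arrays of more than 1 pulse number. The labels do not say whether a number marks 1 culture, so arrays of one pulse number may come from one culture. The array numbers in the titles were cut here into groups of neighbouring numbers, used below as a block. No label names these groups as batches.

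Signals below are deposited intensities rescaled so that the trimmed mean of each array was 150, before which that mean ran from 82.8 to 325.9. The largest member signal deposited was 7247.9, below the 13449.7 of the brightest probe set, and no member was dimmer than 27.7 after scaling. All 6 mating type a genes listed were measured, with a summed signal of 4384 to 8731 per array. The 4 mating type alpha genes summed to 368 to 385 at steady state and to 419 to 514 at 300 and 330 s. Of these, MF(ALPHA)2 lay at the floor on 14 arrays. MF(ALPHA)1, SAG1 and STE3 lay there on 0 arrays, with steady-state means of 193, 132 and 38.2. MF(ALPHA)1 changed by 0.81 on the log2 scale at 300 s (limma adjusted p = 0.00315) and by 0.69 at 330 s (limma adjusted p = 0.0133). SAG1 changed by −0.57 at 300 s (limma adjusted p = 0.0196). The 3′ to 5′ signal ratio of the ACT1 control probe sets, a sign of RNA quality, was 4.07 to 4.52 at 330 s, 3.39 at steady state replicate 1 and 2.10 to 2.95 on the other arrays. The part of these differences in the results was not tested. Both 330 s arrays also shared a hybridization or scan day with no other time point, so that day and that time cannot be told apart.

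The transcripts of CDC19, PDC1 and PDC6 were called higher than at steady state at 300 s and at 330 s, with the largest rise in PDC6 at 1.87-fold and 2.03-fold. At 300 s only the PDC6 call held in every alternative run, and those of CDC19 and PDC1 did not. PYK2 was the only one of the 10 called lower, at 330 s alone, although under quantile normalization ADH2 was called lower too. The PYK2 call was lost without steady-state replicate 2 (limma adjusted p = 0.0870) and when only the steady-state and 330 s arrays were fitted (0.0581). In bulk RNA, less RNA per cell and fewer cells holding a transcript cannot be told apart. ENO1, ENO2, PDC5, ADH1, ADH2 and ADH3 passed the test at no time point. At 30, 60 and 120 s no member passed. A gene was called changed where limma's moderated test gave an adjusted p under 0.05 over all 5410 genes.

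**Figure D1:**
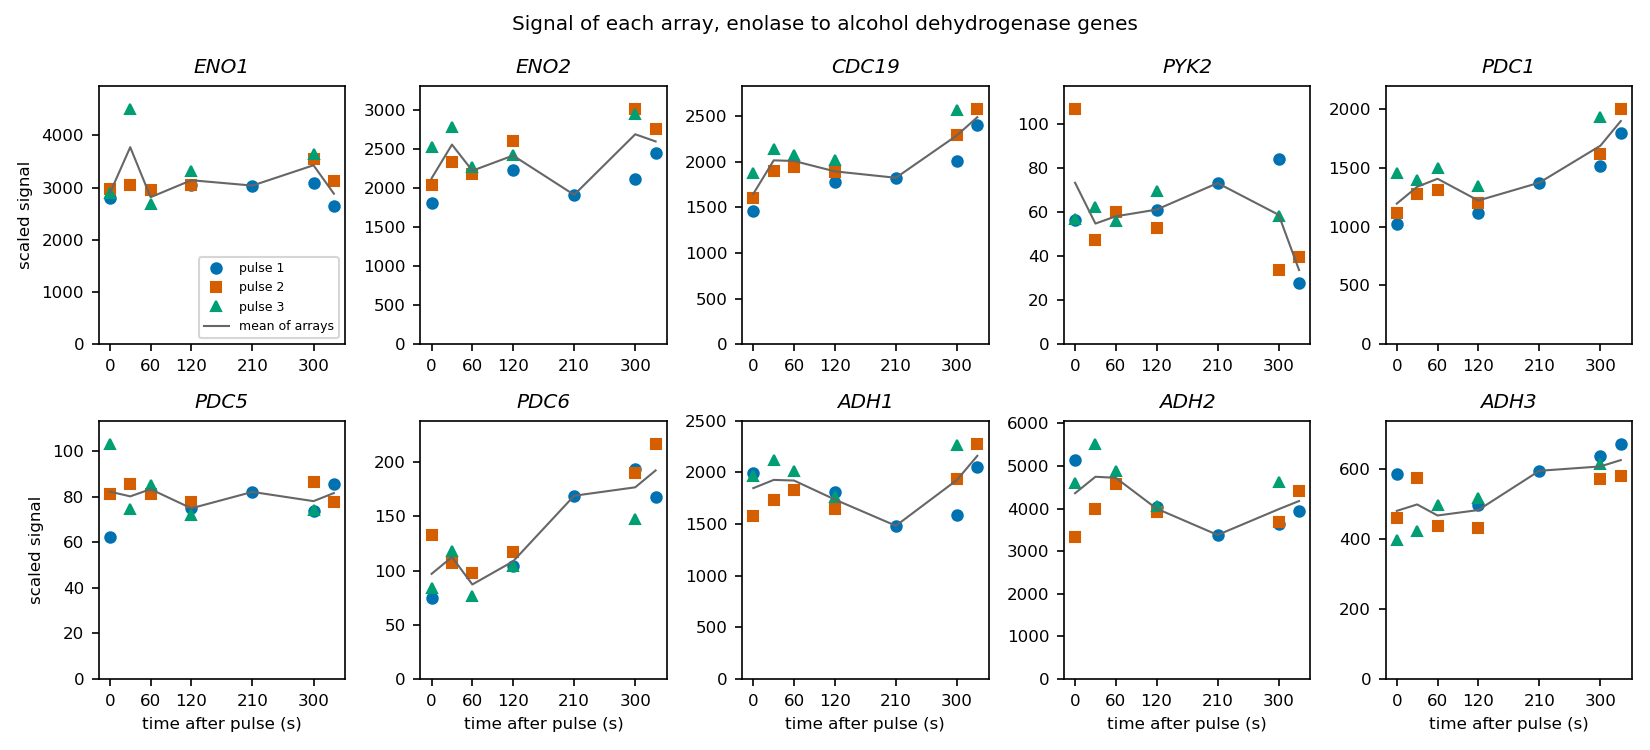
Scaled signal (vertical axis, linear, from 0) of each of the 10 genes on each of the 16 arrays against seconds after the glucose pulse, with time 0 the steady state. Markers give the pulse number and the line joins the means of the arrays. PDC6 stays at or below 133 until 120 s and lies between 147 and 217 from 210 s on, and the PYK2 arrays at 330 s lie at 27.7 and 39.8.

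Among the enolases, ENO1 encodes the isoenzyme often linked with growth on non-fermentable carbon. Its steady-state signals were 2807, 2979 and 2894. At 30 s the signals were 3053 and 4497, at 60 s 2953 and 2681, and at 120 s 3048, 3052 and 3326. Later they were 3097, 3543 and 3646 at 300 s and 2641 and 3128 at 330 s. The 30, 120 and 300 s arrays all lay above the 3 steady-state arrays, whereas at 60 and 330 s 1 of the 2 arrays lay below all of them. The log2 change at 300 s was 0.24 ± 0.14 (SE, limma adjusted p = 0.211) and at 330 s −0.01 ± 0.16 (limma adjusted p = 0.971).

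ENO2 encodes the enolase associated with growth on glucose. Its steady-state signals were 1808, 2047 and 2531, a wider spread than that of ENO1. At 30 s they were 2334 and 2788, at 60 s 2182 and 2271, and at 120 s 2237, 2603 and 2422. At 300 s they were 2119.9, 3011 and 2949, and at 330 s 2449 and 2755. Steady-state replicate 3 exceeded 1 of the 3 arrays at 300 s and 1 of the 2 at 330 s, so the groups overlapped. The log2 change was 0.34 ± 0.16 at 300 s (limma adjusted p = 0.116) and 0.30 ± 0.17 at 330 s (limma adjusted p = 0.186). It passed the test at 300 s without steady-state replicate 3 (limma adjusted p = 0.0378) or without 300 s replicate 1 (0.0219), and with pulse number as a block it passed at 300 s (0.0306) and at 330 s (0.0279). Array number as a block gave a pass at 330 s (limma adjusted p = 0.0329) and not at 300 s (0.0721). With day as a block the 300 s change was 0.17 (limma adjusted p = 0.292). On the 2 days that held both groups ENO2 differed at 300 s by 0.22 and 0.05. At 330 s its change under quantile normalization was −0.005.

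The ENO1 and ENO2 coding sequences are close to each other, and 1 further probe set is annotated to both genes and was left out by the rule. On it the steady-state signals were 2815, 2571 and 3683 and the 300 s signals 2825, 3428 and 4307, which overlapped. Cross-hybridization between the isoenzyme probe sets was not tested, here or for the other close pairs.

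CDC19 encodes the main pyruvate kinase of fermenting yeast. Before the pulse its signals were 1461, 1605 and 1876. They were 1892 and 2135 at 30 s, 1946 and 2068 at 60 s, and 1781, 1883 and 2015 at 120 s. By 300 s they had reached 2007, 2289.6 and 2566, and at 330 s 2402 and 2571. At 30, 60, 300 and 330 s every array lay above every steady-state array, and at 120 s 1 array lay within the steady-state range. The mean signal moved from 1647 ± 211 (SD, n = 3) at steady state to 2287 ± 280 (n = 3) at 300 s and 2486 ± 119 (n = 2) at 330 s.

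On the log2 scale CDC19 was 0.29 ± 0.14 above steady state at 30 s (limma adjusted p = 0.793) and 0.29 ± 0.14 at 60 s (limma adjusted p = 0.788), so its early values did not pass. At 300 s the log2 change was 0.47 ± 0.13 (1.39-fold, limma adjusted p = 0.0103), and at 330 s it was 0.60 ± 0.14 (1.52-fold, limma adjusted p = 0.00376). Between 120 and 300 s it was 0.27 ± 0.13 (limma adjusted p = 0.146), which passed with pulse number (0.0412), array number (0.0340) or day (0.0372) as a block. The 300 s call was lost without 300 s replicate 3 (limma adjusted p = 0.0526) and when only the steady-state and 300 s arrays were fitted (0.0713). Within the 2 days that held both groups the differences were 0.45 and 0.32, and with day as a block 0.38 (limma adjusted p = 0.0103).

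PYK2 encodes the second pyruvate kinase, known as repressed by glucose and little dependent on fructose bisphosphate. Its probe set was the dimmest of the 10. The steady-state signals were 56.5, 107 and 57.1, so replicate 2 lay well above the others. They were 47.5 and 62.3 at 30 s, 60.1 and 56.3 at 60 s, and 61.1, 52.7 and 69.9 at 120 s. At 300 s they were 84.2, 34.0 and 58.4, which overlapped the steady-state values, and at 330 s 27.7 and 39.8, below all other arrays but one.

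The log2 change of PYK2 was −0.35 ± 0.30 at 300 s (limma adjusted p = 0.414) and −1.08 ± 0.34 at 330 s (2.11-fold lower, limma adjusted p = 0.0208). Without steady-state replicate 2 the 330 s value was −0.77 (limma adjusted p = 0.0870), and without 330 s replicate 1 it was −0.82 (0.198). Against steady-state replicate 1, whose array number lies beside theirs, the 330 s arrays differed by −1.03 and −0.51, and with this numbering as a block the value was −0.77 (limma adjusted p = 0.201). The 330 s arrays had the highest ACT1 3′ to 5′ ratios given above, and the part of RNA quality in the fall was not tested.

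PDC1 encodes the main pyruvate decarboxylase, the enzyme that commits pyruvate to ethanol formation. The 3 steady-state arrays gave 1022, 1112 and 1453. They were 1281 and 1396 at 30 s, 1312 and 1503 at 60 s, and 1116, 1201 and 1349 at 120 s. The late signals were 1516, 1613 and 1935 at 300 s, and at 330 s 1799 and 1996. All 5 late arrays lay above all 10 arrays taken up to 120 s, and the earlier time points overlapped the steady state.

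The log2 change of PDC1 was 0.18 ± 0.16 at 30 s, 0.25 ± 0.16 at 60 s and 0.04 ± 0.14 at 120 s, with no call. It was 0.51 ± 0.14 at 300 s (1.42-fold, limma adjusted p = 0.0145) and 0.68 ± 0.16 at 330 s (1.60-fold, limma adjusted p = 0.00374). From 120 to 300 s alone it was 0.46 ± 0.14 (1.38-fold, limma adjusted p = 0.0288). That call was lost under median centring (limma adjusted p = 0.0912) and without 120 s replicate 1 or 2 or 300 s replicate 2 or 3 (0.36 to 0.49, limma adjusted p = 0.0567 to 0.122). The 300 s call was lost without steady-state replicate 1 (0.40, limma adjusted p = 0.0651), without 300 s replicate 3 (0.40, 0.0711) and with only the compared arrays (0.0782). Within the 2 days that held both groups the 300 s differences were 0.41 and 0.45, and with day as a block 0.41 (limma adjusted p = 0.00916).

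PDC5 encodes the decarboxylase known to be induced when PDC1 is lost or thiamine is scarce. Before the pulse the signals were 62.5, 81.1 and 103. They lay at 85.6 and 74.6 at 30 s, 81.3 and 85.1 at 60 s, and 75.2, 77.6 and 71.8 at 120 s. Late signals were 73.6, 86.2 and 74.1 at 300 s, and at 330 s 85.3 and 77.8. Every array after the pulse lay within the range of the steady-state arrays. The log2 change was −0.05 ± 0.17 at 300 s (limma adjusted p = 0.858), 0.09 under quantile normalization and 0.12 under median centring, and it was 0.02 ± 0.19 at 330 s (limma adjusted p = 0.954).

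PDC6 encodes a minor decarboxylase with few sulfur-containing residues, known for its induction under sulfur limitation. At steady state PDC6 had signals of 74.5, 133 and 83.7. They were 107 and 118 at 30 s, 97.7 and 76.6 at 60 s, and 104 (replicate 1), 117 (replicate 2) and 104 (replicate 3) at 120 s. Afterwards they were 169 on the single 210 s array, 193, 190 and 147 at 300 s, and 168 and 216 at 330 s. The arrays from 210 s on all lay above the 10 earlier ones.

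PDC6 rose by 0.90 ± 0.20 on the log2 scale at 300 s (1.87-fold, limma adjusted p = 0.00331) and by 1.02 ± 0.22 at 330 s (2.03-fold, limma adjusted p = 0.00236). From 120 to 300 s it rose by 0.70 ± 0.20 (1.62-fold, limma adjusted p = 0.0201), a call that was lost without 120 s replicate 1 or 3 or 300 s replicate 1 or 2 (0.63 to 0.67, limma adjusted p = 0.0635 to 0.0741). Its mean signal was 97.0 ± 31.3 (SD, n = 3) at steady state, 108 ± 7.40 (n = 3) at 120 s, 177 ± 25.6 (n = 3) at 300 s and 192 ± 34.1 (n = 2) at 330 s. Within the 2 days that held both groups the 300 s differences were 0.81 and 0.54, and with day as a block 0.74 (limma adjusted p = 0.0104).

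ADH1 encodes the main cytosolic dehydrogenase that reduces acetaldehyde to ethanol. Its steady-state signals were 1996, 1583 and 1966. They were 1734 and 2122 at 30 s, 1827 and 2017 at 60 s, and 1806, 1642 and 1767 at 120 s. At 300 s they were 1584, 1934 and 2265, and at 330 s 2049.8 and 2273. The 330 s arrays lay above all steady-state arrays and the 300 s arrays overlapped them. The log2 change was 0.05 ± 0.14 at 300 s (limma adjusted p = 0.814), −0.11 under quantile normalization, and 0.23 ± 0.16 at 330 s (limma adjusted p = 0.271).

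ADH2 encodes the cytosolic isoenzyme known for ethanol oxidation and strong glucose repression. The steady-state arrays read 5143, 3336 and 4601. They were 3985 and 5508 at 30 s, 4568 and 4876 at 60 s, and 4026, 3913 and 4059 at 120 s. The late arrays gave 3648, 3677 and 4632 at 300 s, and at 330 s 3954 and 4402. All arrays at 120, 300 and 330 s lay within the steady-state range, which itself spanned 3336 to 5143.

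The log2 change of ADH2 was −0.12 ± 0.17 at 300 s (limma adjusted p = 0.644) and −0.04 ± 0.19 at 330 s (limma adjusted p = 0.880). Its direction and call depended on the scaling: quantile normalization gave −0.35 and −0.45 (limma adjusted p = 0.00686 and 0.00218), and median centring gave 0.05 and 0.13. Within the 2 days that held both groups the 300 s differences were 0.01 and 0.13.

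ADH3 encodes the mitochondrial alcohol dehydrogenase, which takes part in a shuttle of reducing equivalents. At steady state the signals were 585, 459 and 398. They were 575 and 422 at 30 s, 438 and 496 at 60 s, and 497, 432 and 518 at 120 s. At 300 s they were 636, 572 and 614, and at 330 s 670.4 and 580.3. Steady-state replicate 1 lay above 1 array of each late time point, so the groups overlapped.

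The log2 change of ADH3 was 0.36 ± 0.15 at 300 s (1.28-fold, limma adjusted p = 0.0870) and 0.40 ± 0.17 at 330 s (1.32-fold, limma adjusted p = 0.0772). Without steady-state replicate 1 both times passed (0.51 and 0.55, limma adjusted p = 0.0220 and 0.0165), as they did under median centring (0.52 and 0.56, limma adjusted p = 0.0200 and 0.0210) but not under quantile normalization (0.28 and 0.33, limma adjusted p = 0.177 and 0.138). Within the 2 days that held both groups the 300 s differences were 0.63 and 0.47, and ADH3 passed at 300 s with day as a block (0.54, limma adjusted p = 0.0254) or array number as a block (0.48, limma adjusted p = 0.0340). At 330 s, however, array number as a block gave only 0.09 (limma adjusted p = 0.758). Against steady-state replicate 1, whose array number lies beside theirs, the 330 s arrays differed by 0.20 and −0.01.

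**Figure D2:**
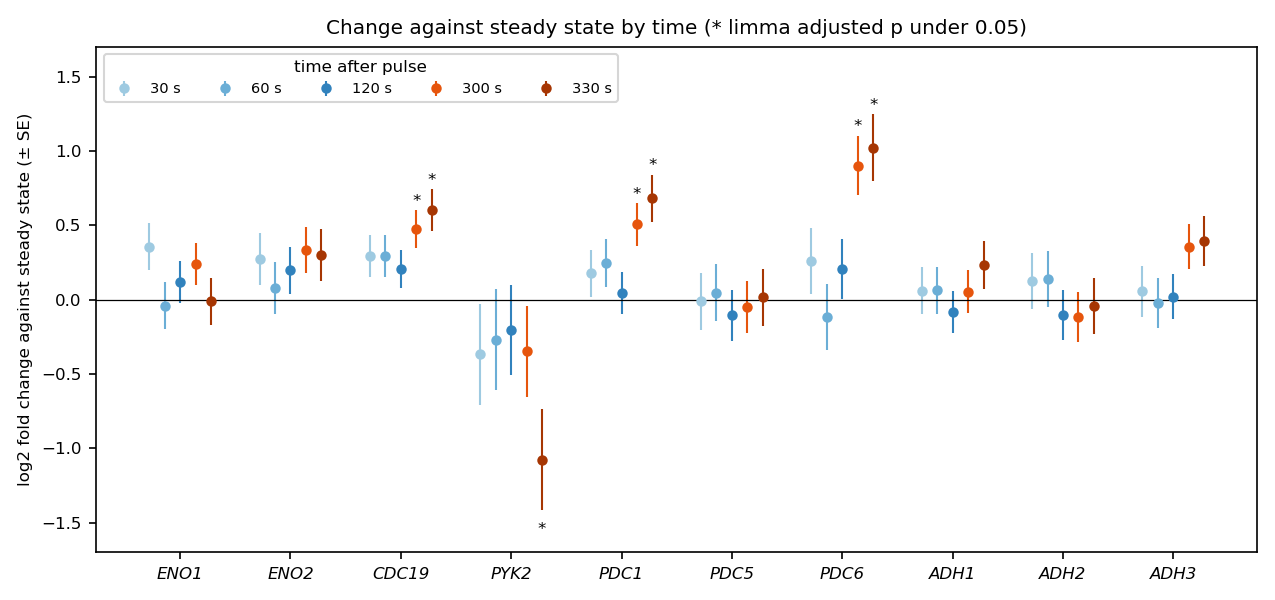
Log2 fold change against steady state (vertical axis) of the 10 genes at the 5 replicated times after the pulse, as fitted by limma, with bars of ± 1 SE. Stars mark an adjusted p under 0.05. They stand at 300 and 330 s for CDC19, PDC1 and PDC6 and at 330 s for PYK2, where the change is −1.08.

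Over the whole table limma called 0% of the 5410 genes at 30 s, 0% at 60 s and 0.0739% at 120 s, and 0 of the 10 members at each of these times. At an unadjusted p under 0.05 there were 336, 343 and 586 genes, with 1 member (ENO1) at 30 s and 0 at 60 and 120 s. ENO1 at 30 s had a log2 change of 0.36 ± 0.16 (limma adjusted p = 0.793), and its 2 arrays differed by more than that change. At 300 s 30.5% of all genes were called, against 3 of the 10 members, all higher, and 37.6% at 330 s, against 4 of 10, of which 3 were higher. From 120 to 300 s 22.1% were called, against 2 of 10. A moderated F test over the 5 times called 35.5% of genes and 3 members, CDC19, PDC1 and PDC6 (limma adjusted p = 0.0269, 0.0134 and 0.00256). The members' share was therefore near that of all genes in each comparison.

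The median log2 change of the 10 members was 0.29 at 300 s and 0.27 at 330 s, beside −0.12 and −0.19 over all 5410 genes. Median centring moved the all-gene median at 300 s to 0.05 and the split of higher to lower calls from 656 and 992 to 885 and 535. At 330 s it moved the split from 720 and 1314 to 925 and 827, and quantile normalization gave 849 and 1120. Relative to the median gene, the 300 s changes were 0.59 for CDC19, 0.62 for PDC1 and 1.02 for PDC6, and at 330 s 0.79, 0.87 and 1.21. These 3 genes were called higher at both times under both other scalings, but the sizes moved. Under quantile normalization the log2 changes at 300 and 330 s were 0.29 and 0.34 for CDC19, against 0.47 and 0.60 in the main fit. For PDC1 they were 0.43 and 0.56, against 0.51 and 0.68, and for PDC6 1.01 and 1.13, against 0.90 and 1.02. The members' medians above are for the main scaling only. PYK2 at 330 s was −0.89 relative to the median gene and was called lower under both other scalings.

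Isoenzymes of one step were compared through the log2 ratio of their signals within each array, which shows unequal change and not which gene has more RNA. The 5 arrays at 300 and 330 s were set against the 10 arrays up to 120 s in an exact two-sided permutation test, in 8 pairs, with Benjamini-Hochberg adjustment. This split follows where the single-gene calls lie, so the tests are not independent of them. Of the 8 pairs, 5 passed.

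The decarboxylases differed most clearly. The PDC5 to PDC6 log2 ratio lay between −0.71 and 0.30 on the earlier arrays and between −1.48 and −0.98 on the late ones, with no overlap. It was lower by a mean difference of −0.86 ± 0.17 (SE, exact permutation p = 0.000333, the smallest that 3003 splits can give, adjusted p = 0.00266). The PDC1 to PDC5 ratio was higher by 0.48 ± 0.10 (exact permutation p = 0.000999, adjusted p = 0.0040), with late values of 4.23 to 4.71 against 3.78 to 4.23. The PDC1 to PDC6 ratio was lower by −0.38 ± 0.19 and did not pass (exact permutation p = 0.0599, adjusted p = 0.0799), though it did under quantile normalization (−0.48, adjusted p = 0.0165). Over this split PDC1 and PDC6 were both higher relative to PDC5, which restates their single-gene calls. Against the steady state alone the differences were 0.60 for PDC1 to PDC5 and −0.97 for PDC5 to PDC6, and neither passed (exact permutation, adjusted p = 0.0714 for each). In both pairs the late and steady-state arrays did not overlap, which gives the smallest exact permutation p that 56 splits allow, 0.0179. No smaller unadjusted value was possible there.

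The pyruvate kinase ratio of CDC19 to PYK2 was higher by 0.80 ± 0.29 on the late arrays (exact permutation p = 0.0143, adjusted p = 0.0229). Its late values ran from 4.57 to 6.44 and overlapped the earlier 3.91 to 5.32, with 300 s replicate 1 inside the earlier range. The pair no longer passed without 300 s replicate 2 or either 330 s array (exact permutation, adjusted p = 0.0671 to 0.0852), and with 300 s as the only late time the difference was 0.45 (adjusted p = 0.236). For the enolases the ENO1 to ENO2 ratio differed by −0.15 ± 0.09 (exact permutation p = 0.128, adjusted p = 0.128), and without 300 s replicate 1 by −0.22 (adjusted p = 0.0453).

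Among the alcohol dehydrogenases, none of which was called alone, 2 of 3 ratios passed. The ADH1 to ADH2 ratio was higher by 0.23 ± 0.06 (exact permutation p = 0.0020, adjusted p = 0.00533), with late values of −1.20 to −0.93 against −1.38 to −1.08. The ADH2 to ADH3 ratio was lower by −0.47 ± 0.15 (exact permutation p = 0.00833, adjusted p = 0.0167), from 2.79 to 3.71 on the earlier arrays to 2.52 to 2.92 on the late ones. The ADH1 to ADH3 ratio differed by −0.23 ± 0.13 (exact permutation p = 0.107, adjusted p = 0.123), with a difference of −0.27 under quantile normalization that passed (adjusted p = 0.0195). Over the 300 and 330 s arrays together, these mean differences put ADH2 lower relative to ADH1 by 1.17-fold and relative to ADH3 by 1.38-fold. With 300 s as the only late time the differences were 0.19 for ADH1 to ADH2 and −0.48 for ADH2 to ADH3, and neither passed (exact permutation, adjusted p = 0.0559 for each). Against the steady state alone they were 0.21 and −0.46, and neither passed (exact permutation, adjusted p = 0.114 for each). On the day of steady-state replicate 2 the ADH1 to ADH2 ratio fell from −1.08 before the pulse to −1.20 at 300 s. On that of replicate 3 it rose from −1.23 to −1.03. The ADH2 to ADH3 ratio was lower at 300 s on both days.

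**Figure D3:**
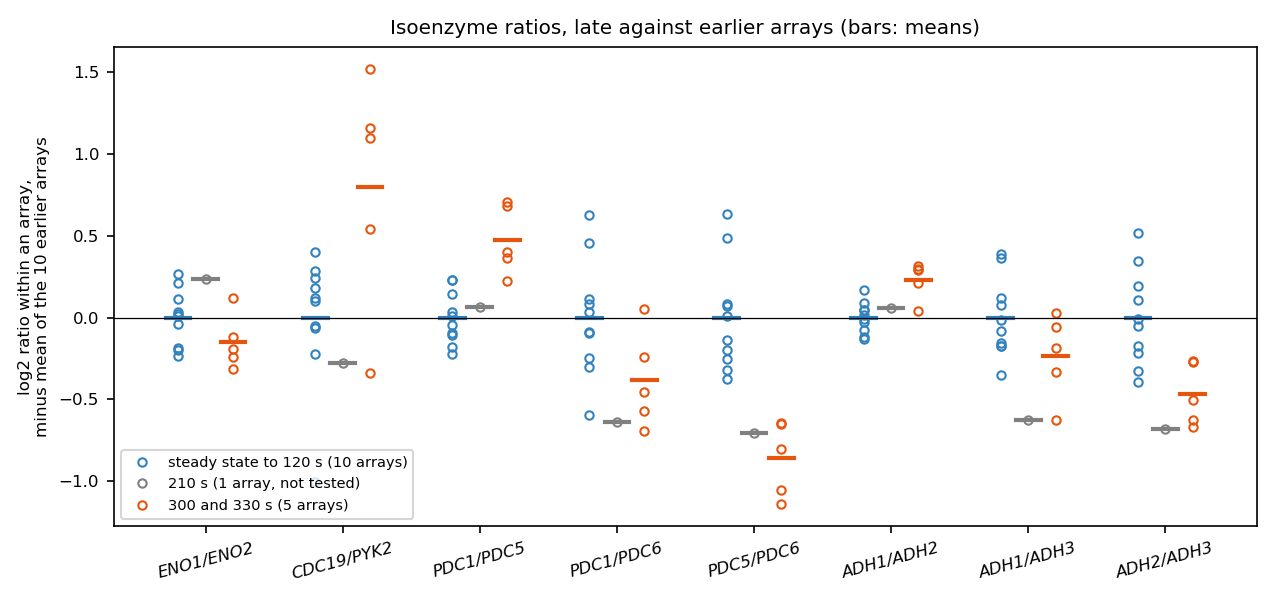
Log2 ratio of 2 isoenzyme signals within each array, minus the mean of the 10 earlier arrays (vertical axis), for the 8 pairs, with circles for arrays and bars for means. Earlier arrays are steady state to 120 s, late arrays are 300 and 330 s, and the single 210 s array entered no test. The PDC5 to PDC6 ratio is the only one of the 8 whose late arrays do not overlap the earlier ones.

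Across the 16 arrays the members with the most similar log2 signals were CDC19 and PDC1 (Pearson r = 0.944), followed by CDC19 and ENO2 (0.795). ADH1 and ADH2 had r = 0.741. CDC19 and PYK2 had −0.563, and PDC6 and ADH2 −0.542. Arrays of one time point, day and scaling enter these values together, and they are given as a description.

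Outside the 10 genes, CDC19 was most like RPL22A (0.946), a large ribosomal subunit protein, PRS1 (0.941), a phosphoribosyl pyrophosphate synthetase subunit, and RPL37A (0.923), another such ribosomal protein. PDC1 was most like PRS1 (0.919), GLN1 (0.908), which encodes glutamine synthetase, and LYS1 (0.907), a lysine biosynthesis gene. For PDC6 the nearest genes were COG1 (0.941), YBL029W (0.940) and SER1 (0.927), a serine biosynthesis gene. PYK2 was nearest to NVJ2 (0.878), RAM1 (0.876) and PMT5 (0.839).

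For ENO2 the nearest were CYS3 (0.911), a gene of cysteine synthesis, PMP2 (0.903) and ART5 (0.894), and for ENO1 they were BGL2 (0.807), SCY1 (0.753) and SCW4 (0.742). ADH1 was nearest to ASC1 (0.887), RPL10 (0.882) and CCW12 (0.854). ADH2 was nearest to the stress-response genes DDR2 (0.903) and HSP12 (0.868) and to MRL1 (0.899). ADH3 was nearest to PYC1 (0.879), which encodes a pyruvate carboxylase, KRR1 (0.872) and DLD2 (0.865). PDC5, which was called at no time, reached 0.697 with BBP1, 0.661 with FRE8 and 0.657 with BRE2.

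Genes next to the 10 in the pathway were described from fixed lists. Of 15 upper glycolysis genes tested, 1 was called higher and 4 lower at 300 s, which is 33.3% against 30.5% of all genes, with a median log2 change of 0.14 against −0.12 over all genes. The 3 with the largest called changes were the hexokinase gene HXK1 (−1.23 ± 0.12, limma adjusted p = 2.1e-06), EMI2 (−0.91 ± 0.17, limma adjusted p = 0.000981), a glucokinase-related gene, and HXK2 (−0.72 ± 0.14, limma adjusted p = 0.00127). At 330 s 2 of the 15 were higher and 6 lower, 53.3% against 37.6% of all genes. The 4 genes lower at 300 s were among these 6, and the gene higher at 300 s was not called at 330 s.

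Of 17 genes that handle pyruvate or acetaldehyde by other routes, 3 were called higher and 5 lower at 300 s, 47.1% against 30.5% of all genes, with a median of −0.25. At 330 s the counts were equal (37.6% of all genes), with the same 3 genes higher but 3 of the 5 lower genes shared. The carrier that brings pyruvate into mitochondria of respiring cells includes MPC3, which changed by −3.09 ± 0.18 (8.54-fold lower, limma adjusted p = 1.1e-08). ALD5, a mitochondrial acetaldehyde dehydrogenase, changed by 1.33 ± 0.16 (2.51-fold higher, limma adjusted p = 1.9e-05), and ALD3, a cytosolic one, by −0.84 ± 0.24 (limma adjusted p = 0.0140), though at 330 s it was not called (−0.23 ± 0.26, limma adjusted p = 0.513). These changes in MPC3 and ALD5 were larger in size than any among the 10 members.

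Of 6 other alcohol dehydrogenase genes tested, the same 1 was called higher and the same 3 lower at 300 and 330 s, with a median of −0.39 at 300 s. That is 4 of 6 genes, against 30.5% and 37.6% of all genes. The butanediol dehydrogenase gene BDH1 changed by −1.17 ± 0.12 (limma adjusted p = 5.7e-06) and its relative BDH2 by −0.78 ± 0.21 (limma adjusted p = 0.0115). ADH6, an NADPH-dependent dehydrogenase gene, changed by 0.84 ± 0.23 (limma adjusted p = 0.0137).

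Of 13 regulators of these genes, 0 were called higher and 6 lower at 300 s, 46.2% against 30.5% of all genes, with a median of −0.43. At 330 s 0 were higher and 6 lower (37.6% of all genes), and 5 of the lower genes were shared by both times. MIG1, a glucose repressor, changed by −1.18 ± 0.20 (limma adjusted p = 0.000348). CAT8, an activator of genes for non-fermentable carbon, changed by −0.78 ± 0.18 (limma adjusted p = 0.00484), and ADR1, an activator of ADH2, by −0.75 ± 0.17 (limma adjusted p = 0.00367). None of the 3 enolase-related genes ERR1, ERR2 and ERR3 was among the genes tested.

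**Figure D4:**
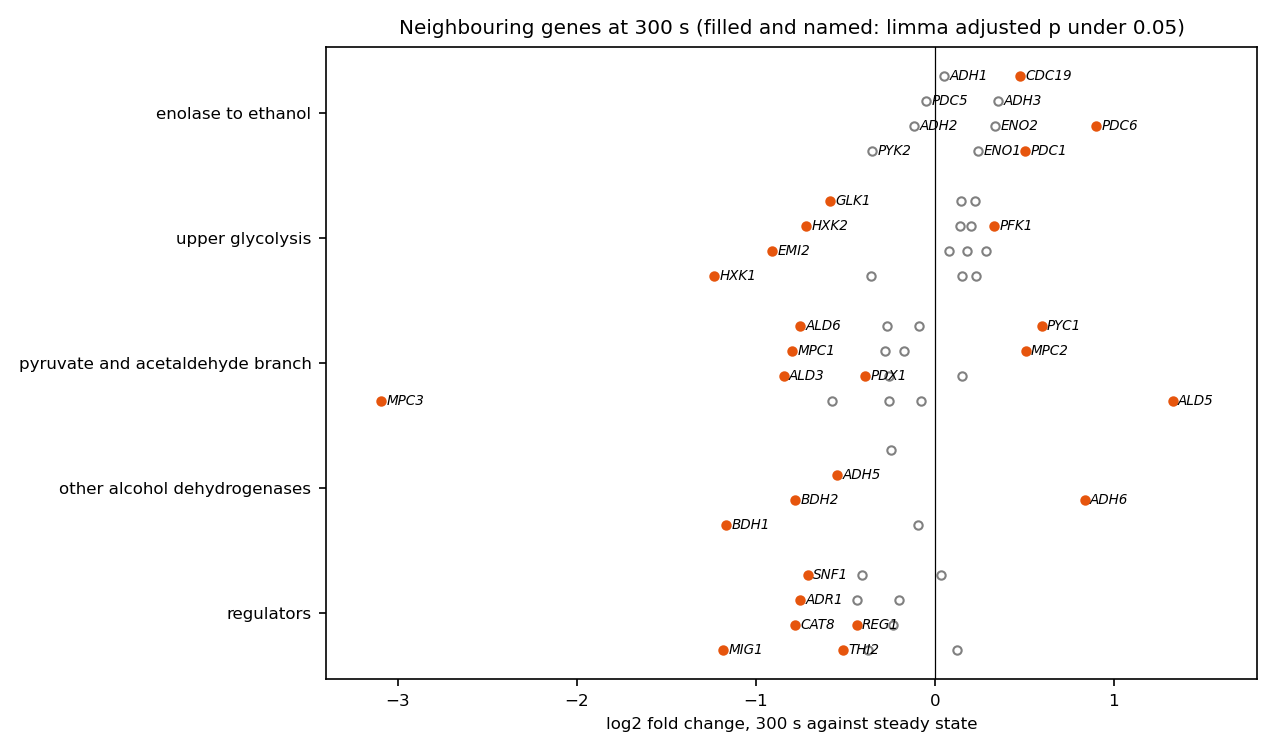
Log2 fold change at 300 s against steady state (horizontal axis) for the 10 genes and 4 lists of pathway neighbours, 1 circle per gene, spread vertically for legibility only. Filled circles passed limma's test at an adjusted p under 0.05. The 10 members lie between −0.35 and 0.90, while MPC3 lies at −3.09 and ALD5 at 1.33.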

How the data were processed

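The authors deposited 1 linear signal intensity per probe set and array, and the submitters' processing notes name GCOS, the Affymetrix software. Its version is not given in the sources used here, nor are its settings. Each deposited intensity was rescaled to a 2% trimmed mean of 150 per array, floored at 12 and transformed to log2. Of 9335 probe sets, 60 were controls, 6504 carried 1 gene, 328 several and 2443 none in the platform annotation. All 6504 matched the RefSeq table of the R64 assembly, used for names only. The brightest probe set stood for each of 5656 genes, and 246 genes that did not exceed the floor on at least 2 arrays were dropped.

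One model of the 15 replicated arrays was fitted with limma 3.58.1 in R 4.3.3 (lmFit, eBayes with a variance trend, 9 residual degrees of freedom), with Benjamini-Hochberg adjustment per contrast. The 210 s array entered no test. Tested on simulated data for 300 s against steady state over 5410 genes, the fit recovered 33% of 1.5-fold and 70% of 2-fold changes. There 100 genes were changed at each fold and the noise was independent between arrays. In the data 30.5% of genes were called at 300 s, and limma estimated a correlation of 0.265 between arrays of a day over all genes. The main fit treats the arrays as independent, so these rates need not hold for the data. Where the labels do not tie arrays to separate cultures, p-values measure only the spread between these arrays, and their number limits precision. Replicates differed by a median of 0.157 to 0.279 on the log2 scale, and none were identical. Hybridization or scan days fell into 6 groups.

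Members and lists were chosen with earlier results of these data known. The rule for named genes took all 10 members, the 3 genes most correlated with each, and the most changed called genes at 300 s in each list, up to 3. The plot of pathway neighbours names every called gene of each list. Alternatives covered scaling, floor, filter, blocks, threshold and left-out arrays.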

Additional observations from a re-analysis of the deposited data

Results flagged for a closer look

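The single 210 s array entered no comparison. On it ENO1 had a signal of 3039.6, above the highest steady-state array at 2979. PDC6 had 168.9, above the highest steady-state array at 133. ADH3 had 594.8, above the highest steady-state array at 585. In the other direction, ADH1 had 1484.3, below the lowest steady-state array at 1583. The remaining members lay within the steady-state range. With 1 array these differences were not tested.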

How the results depend on the processing

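Over up to 30 alternatives, the number of members called stayed at 0 at 30, 60 and 120 s and ran from 3 to 5 at 330 s. PDC6 at 300 s, and CDC19, PDC1 and PDC6 at 330 s, passed in every alternative run. At 300 s the count of 3 fell to 1 with only the compared arrays and to 1 at an adjusted p under 0.01, and ran from 1 to 4 without single replicates. From 120 to 300 s the count of 2 became 1 under median centring and 0 at an adjusted p under 0.01, and ran from 0 to 2 without single replicates. Over the whole course the count of 3 became 1 at an adjusted p under 0.01 and ran from 1 to 4 without single replicates. The isoenzyme pairs that passed fell from 5 to 0 against the steady state alone, where 56 splits allow no exact permutation p below 0.0179, and to 2 with 300 s as the only late time. At that smallest value a single pair could not pass after adjustment over all pairs.

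Arrays with the same pulse number deviated together with correlations of −0.20 to 0.42, a median of 0.154 and 20 of 31 above 0.1. The negative values with the same number all involved 330 s replicate 2. With different numbers the median was −0.089 and 8 of 62 exceeded 0.1. Deviations were taken from the mean of each time point, so at a time with 2 arrays the values of one array mirror those of the other in sign. The same-number and different-number values are therefore not independent of each other. The labels do not say that a number marks 1 culture, and not every correlation exceeded 0.1, so the reported values carry no block. With pulse number as a replicate block 4 members were called at 300 s, 5 at 330 s, 3 from 120 to 300 s and 3 over the whole course, and 5 pairs passed by permutation within pulse number. The added members were ENO2 at 300 s (limma adjusted p = 0.0306) and at 330 s (0.0279), and CDC19 from 120 to 300 s (0.0412). Day as a fixed block gave no value at 330 s, and day as a random block, chosen after seeing the data, added ADH3 at 300 s (limma adjusted p = 0.0419). The causes of these differences were not tested. No call changed direction.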
